A study of Mus musculus with 28 samples.

Results

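The genes described here encode components of the desmosome: the desmosomal cadherins Dsc2, Dsc3, Dsg2 and Dsg3, the plakophilins Pkp1, Pkp2 and Pkp3, the plakin Dsp, the membrane protein Perp and the corneodesmosome protein Cdsn. They were chosen by name as a set of 10, and each was represented by the probe set that carries its symbol alone and has the highest mean over the arrays. Of the 10 genes, 9 were measured among 13613 genes tested, and Dsg3 is named for no probe set in the annotation used here, alone or beside other symbols, in which 9160 probe sets are unnamed. RNA was measured on 28 Affymetrix mouse expression arrays, from Balb/c embryos that lack p63 (knockout, KO) and from wild-type embryos (WT). The groups were KO and WT bladder at embryonic days E15, E18 and E19, and KO and WT proximal and distal stomach and small and large intestine at E18, with 2 arrays in each of the 14 groups. No treatment is named for either genotype. The sources used here give neither the p63 allele nor the boundaries of dissection nor how many animals were used, and nothing in them says that the 2 arrays of a group came from separate embryos, so p-values measure the spread between these samples, which may be technical.

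Desmosomes are spot-like junctions that tie the keratin filaments of neighbouring epithelial cells together. Cadherins of the desmocollin (Dsc) and desmoglein (Dsg) families bind across the gap between cells, plakoglobin and plakophilins attach to their tails, and desmoplakin (Dsp) links that plaque to keratin. Dsc2, Dsg2 and Pkp2 are the forms found in simple epithelia and heart, Dsc3, Dsg3 and Pkp1 are typical of stratified epithelia, and corneodesmosin (Cdsn) is added to desmosomes in cornifying layers. The transcription factor p63, encoded by Trp63, is needed for stratified epithelia to form. In the mouse the proximal stomach is lined by stratified squamous epithelium, the bladder by urothelium with p63-positive basal cells, and the distal stomach and intestine by simple epithelium.

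The deposited values are log2 expression values. The medians of the 4 E19 arrays lay between 7.48 and 7.53, below those of the other 24 arrays at 7.73 to 7.86, and the 2 arrays of a group correlated at 0.98 to 0.994. The E19 arrays stand apart: between E18 and E19 bladder, 2835 of 45037 probe sets differed by more than 2 log2 units in KO and 2895 in WT, of which 1995 did so in the same direction in both genotypes, against 516, 577 and 309 between E15 and E18. KO and WT E19 arrays are therefore compared with each other, and the step to E19 is not read as a change with age. Trp63 itself had 13.67 and 13.78 in KO proximal stomach, against 13.16 and 13.31 in WT proximal stomach by its highest-mean probe set (change 0.49, adjusted p = 0.37), and 2 other Trp63 probe sets rose by 0.91 and 1.63 in KO (adjusted p = 0.0011 and 3.7e-04). In KO E19 bladder the highest-mean probe set fell by 2.44 (adjusted p = 1.7e-04), while the 2 others tested, at -0.43 and -0.73, were not called (adjusted p = 0.13 and 0.10). A further Trp63 probe set was not tested. It averaged 7.55 in KO and 6.44 in WT proximal stomach, and 5.33 in KO and 5.82 in WT E19 bladder. Where the Trp63 probe sets lie with respect to the deleted sequence was not stated, so these values do not check the labels. Krt5 and Krt14, keratins of basal stratified cells, changed by -5.80 and -5.54 in KO proximal stomach (adjusted p = 1.4e-15 and 4.9e-09).

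In the proximal stomach, Cdsn and Dsc3 fell steeply in KO tissue and Pkp2 and Dsg2 rose, while the differences of Dsp, Perp, Dsc2 and Pkp1 were between -0.53 and -0.14 and did not pass the test. By limma, with Benjamini-Hochberg adjustment over all genes and a gene called at an adjusted p under 0.05, 5 of the 9 measured members changed, 3 lower (Cdsn, Dsc3 and Pkp3) and 2 higher (Pkp2 and Dsg2). Over all genes tested, 14.6% were called lower and 18.1% higher in this comparison. The members' median change was -0.30, beside 0.02 for all genes. These are whole pieces of tissue, so fewer cells of a type and less RNA per cell cannot be told apart. Cdsn passed the filter on low values only through the 2 WT proximal stomach arrays, so a gene that had not differed there would not have been tested. The actin 3′ minus 5′ difference, a measure of RNA length, also separated these groups, at 0.48 and 0.61 in KO proximal stomach, against 0.97 and 0.88 in WT proximal stomach; with it as a covariate 4 of the 5 members stayed called, all but Pkp3.

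**Figure D1:**
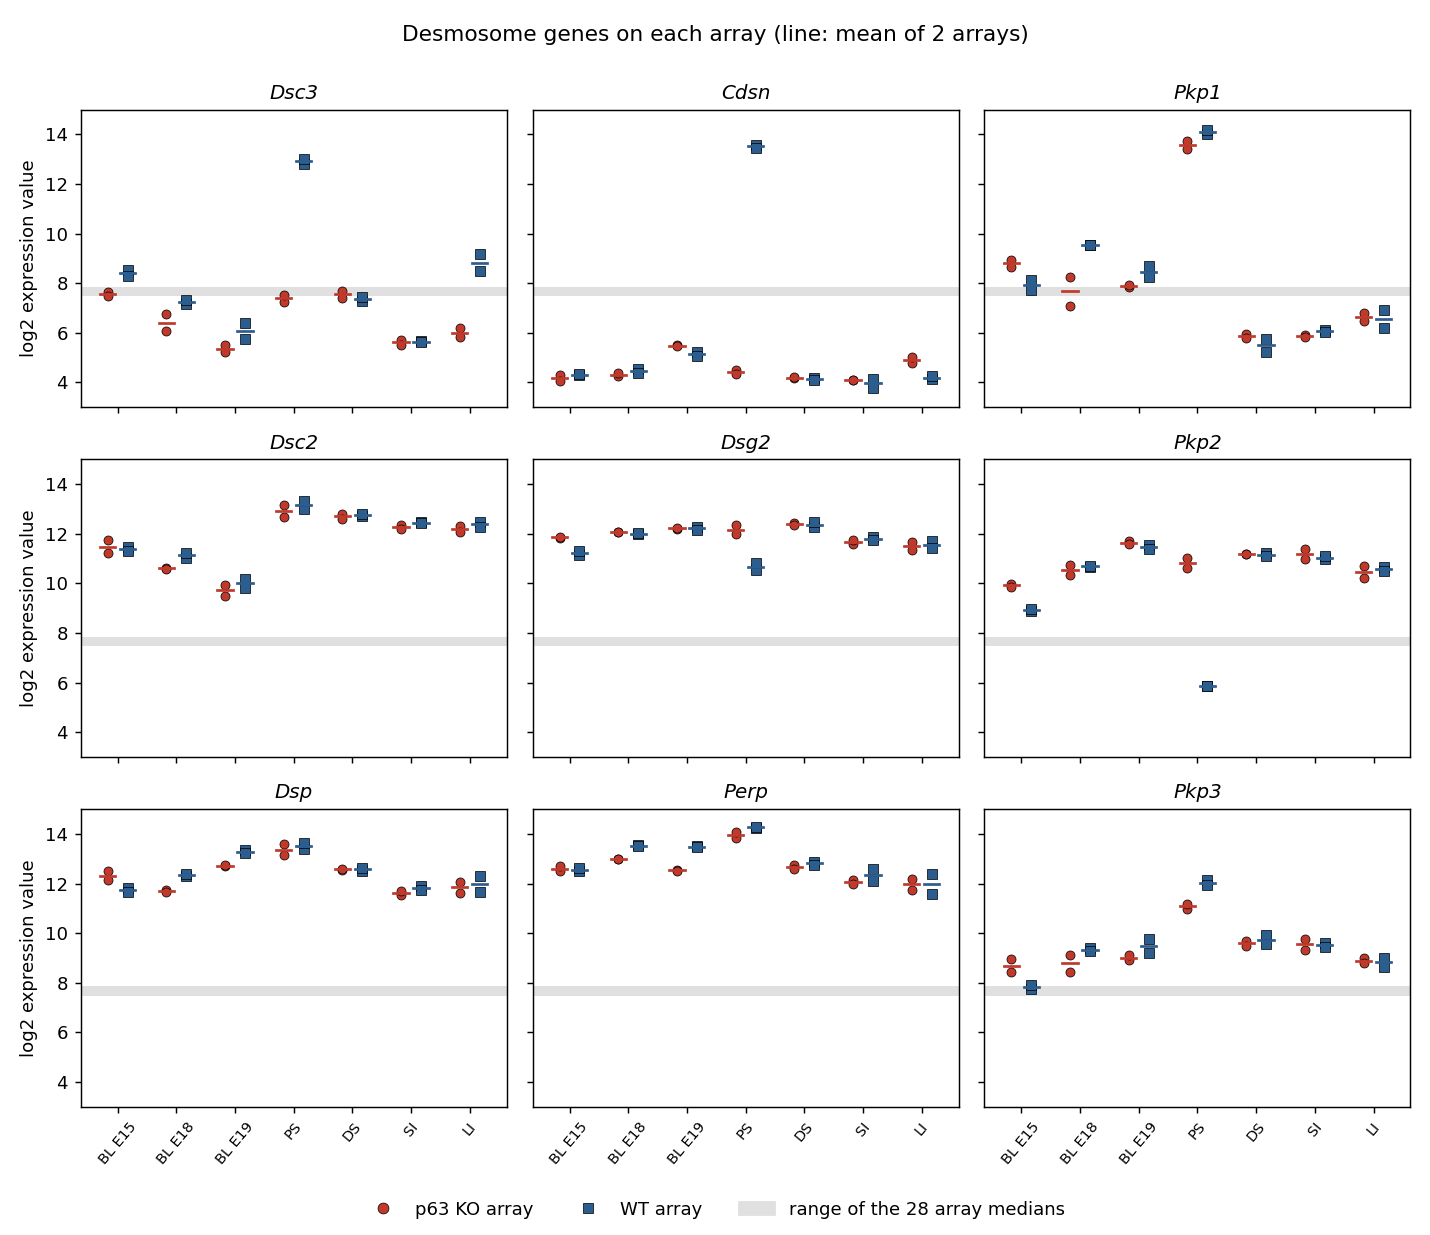
Log2 expression value of each of the 9 measured desmosome genes on each of the 28 arrays, with KO (red circles) left of WT (blue squares) in every tissue, a line at the mean of 2 arrays and a grey band over the range of array medians, 7.48 to 7.86; BL is bladder, PS proximal stomach, DS distal stomach, SI small intestine and LI large intestine. In PS, Dsc3 and Cdsn are high in WT alone and Pkp2 is low in WT alone, while Pkp1, Dsp and Perp are high in both genotypes.

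Among the cadherins, Dsc3, the desmocollin of basal and lower layers of stratified epithelia, had values of 7.26 and 7.54 in KO proximal stomach, against 12.80 and 13.02 in WT proximal stomach. The KO values lay below their own array medians and the groups did not overlap. Dsc3 fell by 5.52 ± 0.26 log2 units (SE), or 45.7-fold (adjusted p = 6.3e-13). The KO mean was 7.40 ± 0.20 and overlapped with WT distal stomach at 7.37 ± 0.12 (SD, n = 2 each). A second Dsc3 probe set lay below the median of all 28 arrays and was not tested; it read 5.13 and 5.76 in KO and 6.96 and 7.74 in WT proximal stomach.

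Dsc2, the widely expressed desmocollin, had values of 12.69 and 13.18 in KO proximal stomach, against 13 and 13.34 in WT proximal stomach, and the groups overlapped. Its change was -0.24 ± 0.19 (SE, adjusted p = 0.36). The other Dsc2 probe set disagreed: it read 11.14 and 11.38 in KO, against 12.48 and 12.89 in WT, a fall of 1.43 (adjusted p = 1.2e-04 over all probe sets kept). Whether Dsc2 RNA was lower in KO proximal stomach therefore depends on the probe set, and which transcripts each detects was not tested.

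Dsg2, the desmoglein of simple epithelia and heart, moved the other way. Its values were 12.01 and 12.34 in KO proximal stomach, against 10.54 and 10.81 in WT proximal stomach, a rise of 1.5 ± 0.13 (SE), or 2.83-fold (adjusted p = 7.6e-09). WT proximal stomach was the lowest of the 14 groups for Dsg2, and KO proximal stomach overlapped with KO and WT E19 bladder. The 4 other tested probe sets of Dsg2 rose by 1.27 to 1.80.

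In RefSeq annotation Dsc3 and Dsc2 lie next to each other at one end of the desmosomal cadherin cluster and Dsg2 lies at the other end, with the order Dsc3, Dsc2, Dsc1, Dsg1c, Dsg1a, Dsg1b, Dsg4, Dsg3, Dsg2. The 3 measured members of the cluster thus ranged in KO proximal stomach from -5.52 (Dsc3) to 1.5 (Dsg2), and 3 other genes of the cluster, Dsc1, Dsg1a and Dsg1b, fell, with changes of -6.96, -5.60 and -8.04. These 3 genes may have passed the filter on low values only through the WT proximal stomach arrays, as Cdsn did. Which arrays carried them past it is not shown here, so no p-value is read from them. Dsg1a and Dsg1b are near-identical copies, so their values may share signal.

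The plakophilins split as well. Pkp2, the plakophilin of simple epithelia and heart, had values of 10.62 and 11.03 in KO proximal stomach, against 5.87 and 5.88 in WT proximal stomach. The WT values were the lowest of the 28 arrays for this gene, and every array outside WT proximal stomach read 8.88 or more. Pkp2 rose by 4.95 ± 0.17 (SE), or 30.8-fold (adjusted p = 2.7e-15), and its other 3 probe sets rose by 3.05 to 4.20.

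Pkp1, the plakophilin of suprabasal stratified cells, did not pass the test for a change. It had 13.41 and 13.74 in KO proximal stomach, against 14.03 and 14.18 in WT proximal stomach, a change of -0.53 ± 0.30 (SE, adjusted p = 0.19). The groups did not overlap, and the change passed the test when only the 4 proximal stomach arrays were fitted (adjusted p = 0.0056). KO proximal stomach ranked next after WT proximal stomach among the 14 groups for Pkp1, with WT E18 bladder after it at 9.54 ± 0.02 (SD, n = 2).

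Pkp3, which is found in nearly all desmosome-bearing epithelia, had 10.98 and 11.19 in KO proximal stomach, against 12.14 and 11.94 in WT proximal stomach. It fell by 0.95 ± 0.24 (SE), or 1.93-fold (adjusted p = 0.0036). With the actin 3′ to 5′ difference of each array as a covariate the call was lost (-0.76, adjusted p = 0.20), as it was on the second probe set (-0.55, adjusted p = 0.096).

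Dsp, the obligate plaque protein, had 13.17 and 13.58 in KO proximal stomach, against 13.41 and 13.62 in WT proximal stomach, and the groups overlapped (change -0.14 ± 0.18, SE, adjusted p = 0.58). Perp, a membrane protein that desmosomes of stratified epithelia require and a known p63 target in mouse skin, had 13.83 and 14.10 in KO proximal stomach, against 14.23 and 14.29 in WT proximal stomach. Its change was -0.30 ± 0.19 (SE, adjusted p = 0.24). The Perp groups did not overlap, and KO proximal stomach ranked next after WT proximal stomach among the 14 groups.

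Cdsn, the adhesive protein of corneodesmosomes, showed the largest absolute change of the 9 members. It had 4.52 and 4.34 in KO proximal stomach, against 13.58 and 13.45 in WT proximal stomach. The difference was -9.08 ± 0.20 log2 units (SE). No p-value is read from it, since those WT arrays alone brought the gene into the test, and no fold is given, since the KO values are near the low end of the array's range. The other 26 arrays, from KO proximal stomach and every other group, read 3.79 to 5.49, so a Cdsn signal above the array median was seen in WT proximal stomach alone.

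The promoter windows of Cdsn and Dsp run from 250 bases before to 50 after a gene start. They are shown because only these 2 of the 10 members had windows after a restriction by chromosome. These 2 genes also had the largest and the smallest absolute change in proximal stomach, but they were not chosen for that. The windows are RefSeq sequences of assembly GRCm38.p6, and both genes lie on the plus strand. Cdsn has 2 annotated starts, with windows at chr17:35542851-35543150 (53.7% GC) and chr17:35551878-35552177 (63% GC), and the Dsp window lies at chr13:38151044-38151343 (73.0% GC). Capitals mark matches to the motifs searched on both strands: the TATA box (TATAAA), the GC box (GGGCGG), the AP-1 site (TGANTCA), the grainyhead-type site (AACNNGTT) and the p53-family half-site, the type of decamer that p63 and its relatives bind.
Cdsn, first start: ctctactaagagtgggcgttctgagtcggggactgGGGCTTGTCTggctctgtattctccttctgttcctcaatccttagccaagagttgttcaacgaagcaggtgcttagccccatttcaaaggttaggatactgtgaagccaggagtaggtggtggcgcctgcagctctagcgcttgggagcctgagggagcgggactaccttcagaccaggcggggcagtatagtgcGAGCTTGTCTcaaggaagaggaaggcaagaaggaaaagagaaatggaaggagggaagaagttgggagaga
Cdsn, second start: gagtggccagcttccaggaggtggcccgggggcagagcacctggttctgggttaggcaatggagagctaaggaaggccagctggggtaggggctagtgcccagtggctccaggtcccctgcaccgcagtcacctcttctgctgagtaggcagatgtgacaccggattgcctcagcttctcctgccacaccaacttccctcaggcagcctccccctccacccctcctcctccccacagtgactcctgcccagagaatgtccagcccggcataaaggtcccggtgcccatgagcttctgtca
Dsp: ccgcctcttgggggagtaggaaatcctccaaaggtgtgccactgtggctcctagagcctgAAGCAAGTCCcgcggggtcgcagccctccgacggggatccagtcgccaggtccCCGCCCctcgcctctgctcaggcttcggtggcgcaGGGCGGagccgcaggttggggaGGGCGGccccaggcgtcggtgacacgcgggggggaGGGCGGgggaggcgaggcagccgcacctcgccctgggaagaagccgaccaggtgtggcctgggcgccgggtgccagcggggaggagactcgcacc

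The first Cdsn window held 2 p53-family half-sites and the second held no match to the 5 motifs. The Dsp window held 4 GC boxes and 1 half-site. Among 32851 promoter windows of the same length, 8.4% held a half-site, 35.7% a GC box, 13.6% a TATA box, 7.8% an AP-1 site and 4.2% a grainyhead-type site. No match overlapped another. A match is a string of letters and binding was not measured.

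**Figure D2:**
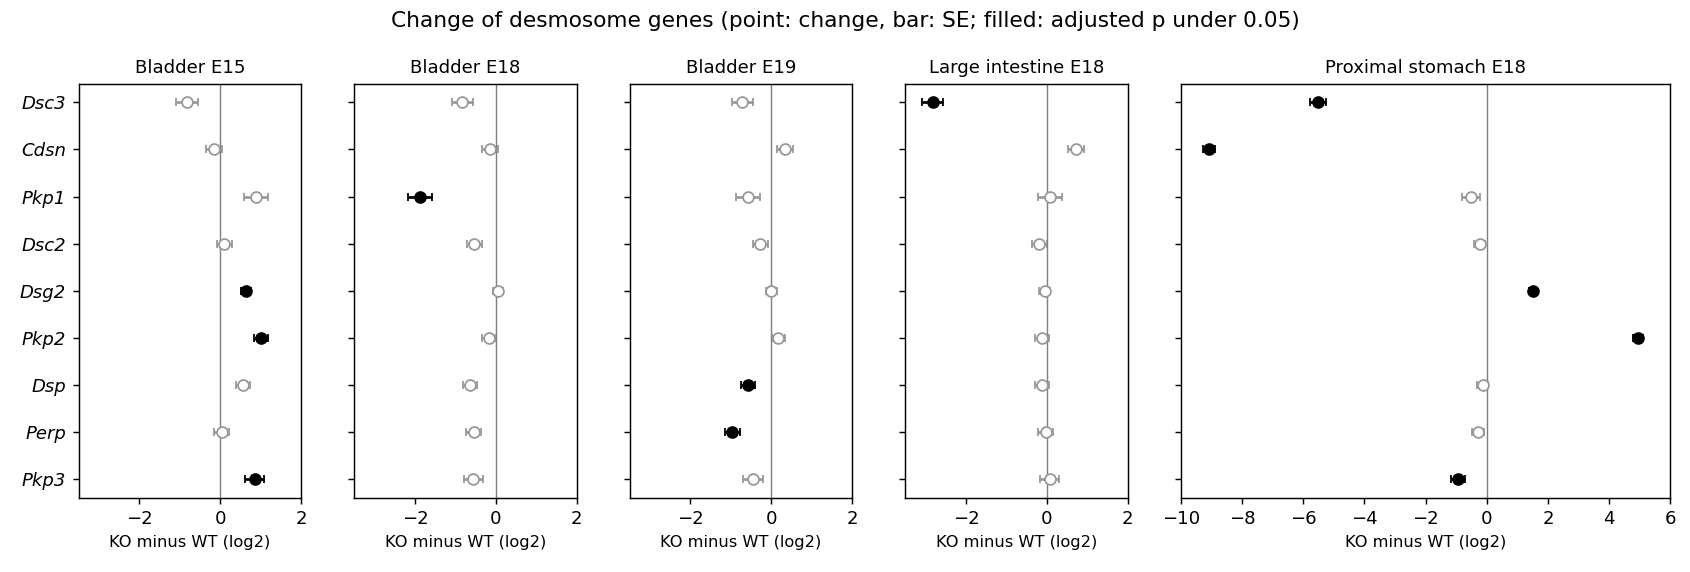
KO minus WT change (log2, x axis) of each desmosome gene in 5 of the 7 tissues and stages, with SE bars and filled points where the adjusted p was under 0.05; the proximal stomach panel has a wider axis. Cdsn and Dsc3 lie at -9.08 and -5.52 and Pkp2 at 4.95 in proximal stomach, while no change in bladder passes 1.88 in size.

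Set against each other within an array, the stratified and simple forms changed unequally. The Dsc3 value minus the Dsc2 value averaged -5.54 ± 0.15 in KO proximal stomach and -0.26 ± 0.08 in WT proximal stomach (SD, n = 2 each), and the Pkp1 value minus the Pkp2 value averaged 2.75 ± 0.06 in KO and 8.23 ± 0.10 in WT. The KO minus WT differences were -5.28 and -5.47, with no overlap and no test. Of the desmocollin shift, -5.52 was the change of Dsc3 and -0.24 that of Dsc2, and of the plakophilin shift, 4.95 was the change of Pkp2 and -0.53 that of Pkp1. Outside proximal stomach, Dsc3 minus Dsc2 differed without overlap by -2.63 in large intestine, -0.92 in E15 bladder, 0.22 in distal stomach and 0.16 in small intestine. Pkp1 minus Pkp2 differed without overlap by -1.72 in E18 bladder, -0.75 in E19 bladder and 0.36 in distal stomach. The remaining comparisons of the pairs overlapped. A pair of Dsg3 and Dsg2 could not be formed.

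The rest of the desmosome and its partners were described from lists that include no member. Of 8 measured other desmosome proteins in proximal stomach, none rose and 4 fell, with a median of -0.45: the desmogleins Dsg1b (-8.04) and Dsg1a (-5.60), the desmocollin of upper layers Dsc1 (-6.96) and the plakin envoplakin, Evpl (-0.49, adjusted p = 0.036). Jup, which encodes plakoglobin, Ppl, Pkp4 and Kazn were not called. Of 9 measured proteases and inhibitors that act on corneodesmosomes, 1 rose and 7 fell, with a median of -4.03. The kallikreins Klk13 (-7.96), Klk10 (-5.32) and Klk5 (-5.08) and their inhibitor Spink5 (-7.76) fell, whereas the membrane protease St14 rose by 0.49 (adjusted p = 0.024). The WT values of Klk5 varied widely, with a mean of 10.6 ± 2.05 (SD, n = 2). Genes of these lists and of the stratified keratins that fell steeply may have been tested only through the WT proximal stomach arrays. Which arrays carried them past the filter is not shown here, so the counts of genes that fell carry that limit.

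The keratins to which desmosomes anchor divided in a like way. All 5 keratins of simple epithelia rose, with a median of 2.31, among them Krt20 (5.92), Krt18 (3.76) and Krt7 (2.31). Of 8 keratins of stratified epithelia none rose and 4 fell, with a median of -2.02: Krt1 (-7.11), Krt5 (-5.80), Krt14 (-5.54) and Krt10 (-4.00). Krt4 and Krt13, keratins of suprabasal cells in non-cornified stratified epithelia, were not called and are named here after their values were seen. Krt4 read 14.51 and 14.66 in KO proximal stomach, against 14.55 and 14.69 in WT proximal stomach, and Krt13 read 14.57 and 14.64 in KO, against 14.59 and 14.69 in WT. Of 11 genes of the adherens junction, the other cadherin-based junction, 6 rose and 2 fell, with a median of 0.32. E-cadherin, Cdh1, rose by 0.46, and Nectin1 fell by 1.81. Of 10 markers of epithelium of any type 5 rose and none fell (median 0.61), as did 5 of 6 markers of urothelium, 5 of 7 of simple glandular epithelium and 3 of 5 of mesothelium, while 5 of 8 squamous markers and 3 of 7 of skeletal muscle fell and none rose. Also, 2 of 5 markers of cardiac muscle and 1 of 6 of smooth muscle fell, and 1 of 4 of endothelium rose. Of 4 markers of neuron and glia 1 rose and 1 fell. No marker of fibroblasts, immune cells or erythroid cells was called. The mean of the 6 urothelium markers was 10.8 and 11.1 in KO proximal stomach, against 6.77 and 6.92 in WT, and the mean of the 7 markers of simple glandular epithelium was 9.73 and 9.75 in KO, against 6.16 and 6.43 in WT. The mean of the 8 squamous markers was 11 and 11.1 in KO, against 13.8 and 13.6 in WT. The part of these markers in the members' changes was not tested.

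**Figure D3:**
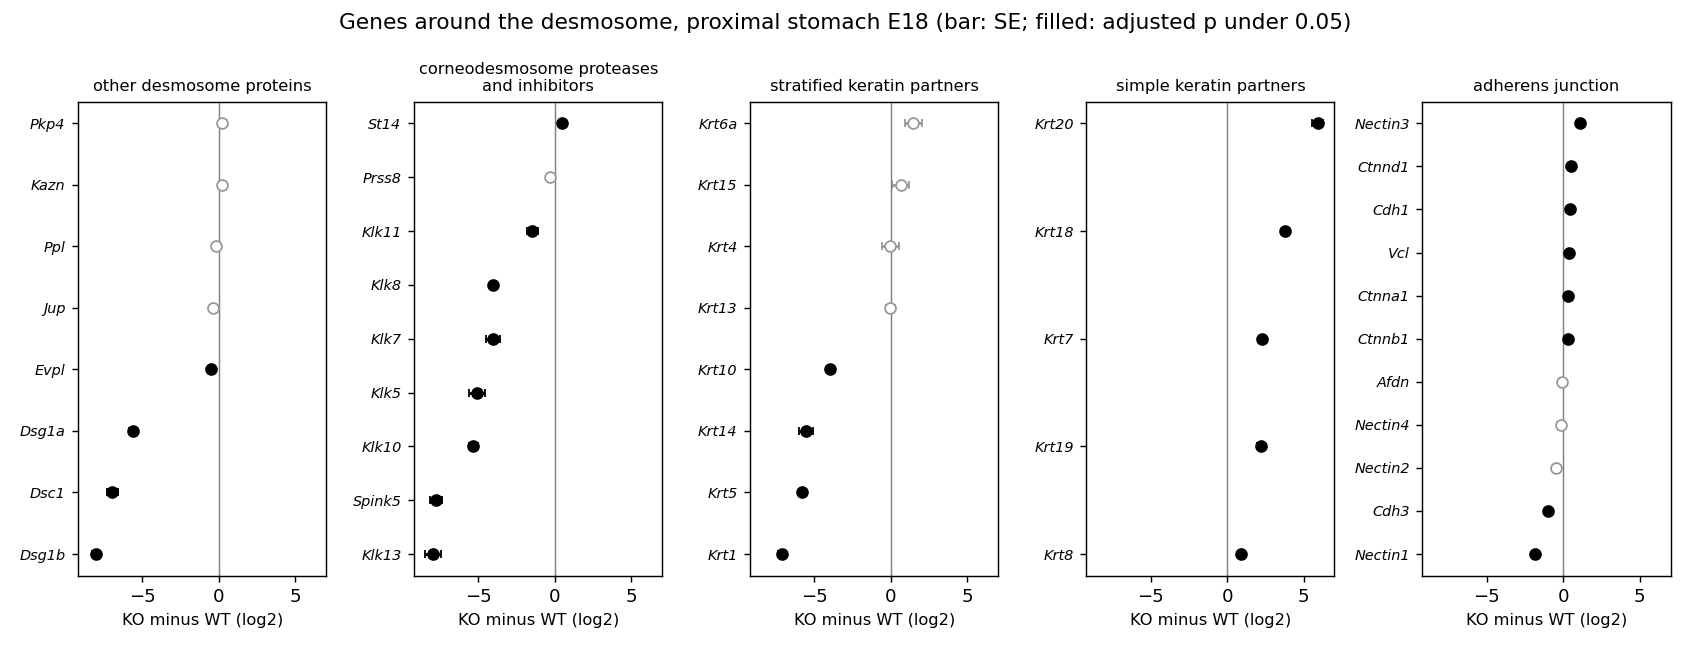
KO minus WT change in proximal stomach (log2, x axis) of the genes in 5 lists around the desmosome, with SE bars and filled points where the adjusted p was under 0.05. The changes called among other desmosome proteins and stratified keratins are all negative, from -8.04 to -0.49, and the 5 simple keratins are all positive, from 0.92 to 5.92.

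In the bladder the changes were smaller and differed between stages. At E15, 3 of the 9 members rose, Pkp2, Pkp3 and Dsg2, and none fell, against 4.55% of all genes called higher and 2.49% called lower. Pkp2 had 9.99 and 9.87 in KO E15 bladder, against 8.88 and 8.97 in WT, a rise of 1 ± 0.17 (SE, adjusted p = 0.0014). Dsg2 had 11.81 and 11.89 in KO, against 11.13 and 11.29 in WT, a rise of 0.64 ± 0.13 (SE, adjusted p = 0.0049). Pkp3 had 8.95 and 8.42 in KO, against 7.75 and 7.92 in WT, a rise of 0.85 ± 0.24 (SE, adjusted p = 0.035). All 3 groups of values were higher in KO without overlap. Dsc3 had 7.66 and 7.5 in KO, against 8.52 and 8.28 in WT (change -0.82, adjusted p = 0.065).

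The KO E15 arrays also differed from WT in a measure of RNA length. The actin probe sets at the 3′ end minus those at the 5′ end read 1.33 and 1.12 on the KO E15 arrays, against 0.69 and 0.78 on the WT E15 arrays, and 1.33 is the highest of the 28 arrays. With this difference as a covariate none of the 9 members was called at E15 (adjusted p = 0.85 for Dsg2, 0.66 for Pkp2 and 1 for Pkp3), and 3 genes were called in all in place of 959. Without the first WT E15 array only 1 member was called. Of 10 markers of epithelium of any type, 7 rose in KO E15 bladder (median 0.76), and their mean was 11.4 and 11.5 in KO, against 10.6 and 10.7 in WT. Of markers of epithelial types, 2 of 6 of urothelium (median 0.73) and 2 of 7 of simple glandular epithelium (median 0.25) rose. Of 8 squamous markers 1 fell (median 0.15). The mean of the urothelium markers was 12.56 and 12.64 in KO E15 bladder, against 11.65 and 11.82 in WT. Among other cell types, 2 of 5 markers of mesothelium, 2 of 4 of neuron and glia and 2 of 7 of skeletal muscle rose. So did 1 of 5 of cardiac muscle, while 1 of 6 of fibroblast and 1 of 2 of erythroid cells fell. The part of these measures in the members' changes was not tested beyond the covariate.

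At E18, Pkp1 alone was called in KO bladder, against 1.67% of all genes called lower and 1.56% called higher. It had 8.25 and 7.09 in KO, against 9.56 and 9.53 in WT, a fall of 1.88 ± 0.30 (SE), or 3.67-fold (adjusted p = 7.2e-04). The KO arrays lay 1.16 apart and both below the WT arrays, and with only the 4 E18 bladder arrays fitted the adjusted p was 0.054. Dsp (-0.63, adjusted p = 0.053), Perp (-0.55, adjusted p = 0.13), Dsc3 (-0.83, adjusted p = 0.10) and Dsc2 (-0.53, adjusted p = 0.14) did not pass the test. Their KO values lay below the WT values without overlap, from which no change is read. The other Dsc2 probe set overlapped, with 8.89 and 8.38 in KO E18 bladder, against 8.65 and 8.28 in WT. With array weights 3 members were called, and with the replicate number as a block 4. The keratins Krt5 and Krt15 changed by -4.83 and -3.97 in the same comparison (adjusted p = 1.2e-12 and 1.5e-04), while envoplakin rose by 0.73 (adjusted p = 0.023) and Kazn by 0.64 (adjusted p = 0.0048).

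At E19, Perp and Dsp fell, against 6.5% of all genes called lower and 13.5% called higher. Perp had 12.57 and 12.49 in KO E19 bladder, against 13.50 and 13.48 in WT, a fall of 0.96 ± 0.19 (SE), or 1.95-fold (adjusted p = 0.0012). Dsp had 12.70 and 12.75 in KO, against 13.35 and 13.24 in WT, a fall of 0.57 ± 0.18 (SE, adjusted p = 0.026). The Dsp call was lost when any of the 4 E19 arrays was left out (adjusted p = 0.065 to 0.13) and when its probe sets were averaged (-0.42, adjusted p = 0.091), and another Dsp probe set gave -0.04 (adjusted p = 0.94). Dsc3 had 5.24 and 5.49 in KO, against 6.41 and 5.76 in WT (change -0.72, adjusted p = 0.061), and all 4 values lay below the array medians.

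Cell type markers moved in the same bladder comparisons. Of 8 squamous markers 2 fell at E18 (median -0.34) and 4 at E19 (median -0.87) and none rose, and their mean at E19 was 8.49 to 8.64 in KO, against 9.78 to 10.2 in WT. Of 7 markers of simple glandular epithelium 4 rose at E18 (median 1.31) and 4 at E19 (median 1.58) and none fell. None of the 6 urothelium markers was called at E18 or E19. Among other cell types, 1 of 4 markers of neuron and glia rose at E18. At E19, 2 of 5 of mesothelium, 1 of 4 of immune cells and 1 of 2 of erythroid cells rose. The part of these markers in the members' changes was not tested.

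Over the mean of the 3 bladder stages, Dsc3 fell by 0.79 ± 0.15 (SE, adjusted p = 0.0011), Perp by 0.49 ± 0.11 (SE, adjusted p = 0.0031) and Pkp1 by 0.52 ± 0.17 (SE, adjusted p = 0.035), while Pkp2 rose by 0.34 ± 0.10 (SE, adjusted p = 0.018) and Dsg2 by 0.23 ± 0.07 (SE, adjusted p = 0.031). That is 3 of 9 lower and 2 of 9 higher, against 7.03% and 14% of all genes. With the actin covariate the calls of Pkp1 (adjusted p = 0.15), Pkp2 (0.14) and Dsg2 (0.18) were lost, and with the mean of probe sets those of Pkp2 (0.055) and Dsg2 (0.094). Pkp1 did not fall at every stage: at E15 it had 8.95 and 8.66 in KO, against 8.14 and 7.71 in WT, higher in KO without overlap (change 0.88, adjusted p = 0.078). Over the stage mean 4 of 8 squamous markers fell and 1 rose, and 5 of 7 simple glandular markers, 6 of 10 of epithelium of any type and 4 of 6 of urothelium rose. Among other cell types, 3 of 4 markers of neuron and glia, 3 of 5 of mesothelium and 3 of 7 of skeletal muscle rose. So did 2 of 4 of immune cells, 1 of 5 of cardiac muscle and 1 of 2 of erythroid cells, and none fell. No marker of smooth muscle, fibroblast or endothelium was called. The part of these markers in the members' changes was not tested. Dsc3 was lower in KO at each of the 3 stages without overlap and passed the test in each of the 12 fits that left out 1 array, as did Perp, while the other 3 calls were lost in some of these fits. In the bladder Dsc3 lay below the array median in every group but WT E15, and its second probe set was not tested. The rises of Pkp2 and Dsg2 were seen at E15: at E18 and E19 Pkp2 differed by -0.16 and 0.18 and Dsg2 by 0.05 and 0.00.

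Around the desmosome, the lists moved differently in the bladder from what was seen in proximal stomach, a difference that was not tested for the lists. Of 8 stratified keratins 2 fell at E15, 4 at E18 and 4 at E19 and none rose, with Krt5 at -1.24, -4.83 and -5.01. Of 8 other desmosome proteins 2 rose at E15, the plakins Evpl (1.54) and Ppl (1.23), 2 at E18 and none at E19, and none fell. Prss8, a membrane-anchored protease, rose at each stage, by 1.31, 0.71 and 0.55. Of 5 simple keratins 2 rose at E15, Krt8 (0.52) and Krt18 (0.48), and 1 fell at E19, Krt7 (-0.77). Of 11 adherens junction genes 3 rose and 1 fell at E15, 1 fell at E18, and 2 rose and 1 fell at E19, with Nectin1 lower at E15 (-0.87) and E18 (-2.08). In distal stomach, small intestine and large intestine none of the genes in these 5 lists was called.

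The change in KO differed between E19 and E15 for 6 of the 9 members (8.59% of all genes), all 6 more negative at E19: Pkp1 by 1.45, Pkp3 by 1.30, Dsp by 1.14, Perp by 1, Pkp2 by 0.83 and Dsg2 by 0.64 log2 units. With the actin covariate none of the 9 was called. Between E15 and E18, 6 members rose and 1 fell in WT bladder (45% of all genes called), with Pkp2 at 1.77, Pkp1 at 1.62 and Pkp3 at 1.51 and with Dsc3 at -1.16. In KO bladder 1 rose, Pkp2 at 0.61, and 4 fell, Dsc3 at -1.17, Pkp1 at -1.14, Dsc2 at -0.88 and Dsp at -0.60 (46.7% of all genes called). Other probe sets did not show 2 of these falls, with 0.0074 for Dsc2 and 0.84 for Dsp. The KO step uses the KO E15 arrays, and none of its calls held with the actin covariate.

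The step between E18 and E19 called 6 of 9 members in KO and 6 of 9 in WT, but also 60.5% of all genes in KO and 63.1% in WT. Different probe sets of a gene moved in opposite directions. The Dsg2 probe set used here changed by 0.16 in KO and 0.21 in WT, while another Dsg2 probe set changed by -4.23 in KO and -3.76 in WT. For Pkp2 the probe set used changed by 1.11 in KO and 0.77 in WT, and another by -5.07 in KO and -4.56 in WT. In the Dsp set one changed by 1.01 in KO and 0.94 in WT and another by -1.07 in KO and -1.26 in WT. The shift is shared by both genotypes and cannot be told apart from the processing of the E19 arrays.

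**Figure D4:**
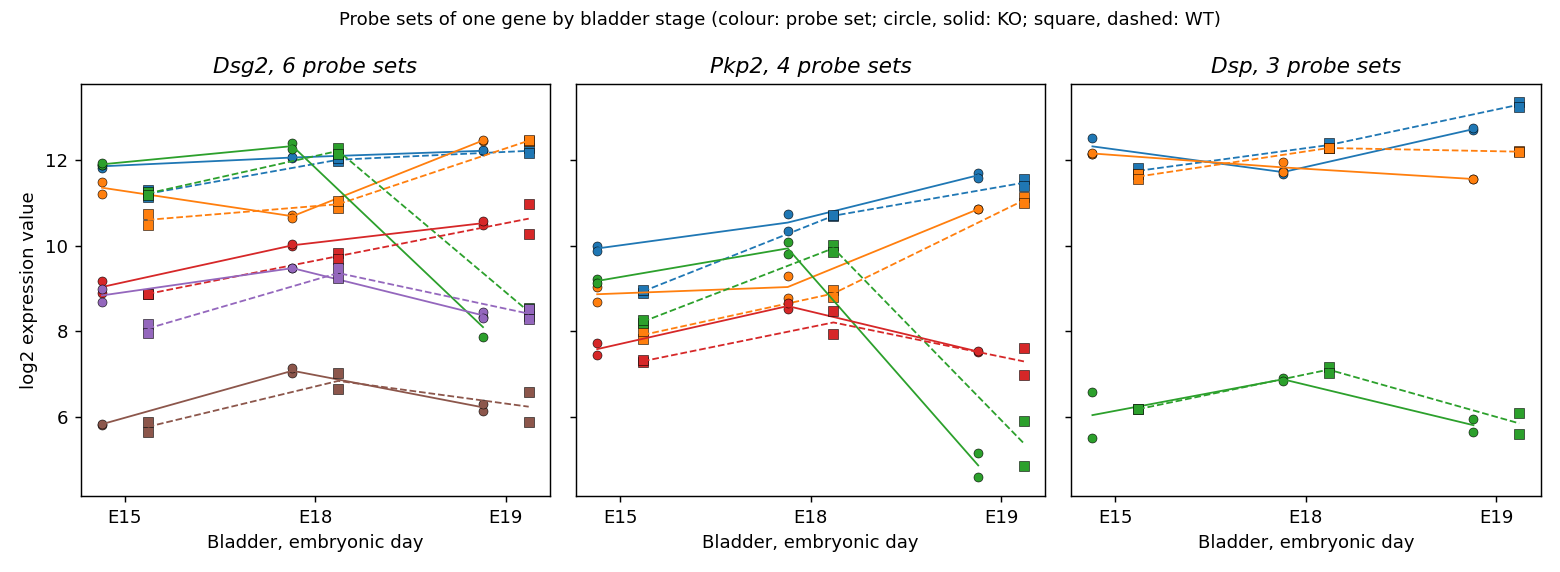
Log2 value of each probe set of Dsg2 (6 probe sets), Pkp2 (4) and Dsp (3) on the bladder arrays at E15, E18 and E19, coloured by probe set, with KO as circles and solid lines left of WT as squares and dashed lines. Between E18 and E19 some probe sets of a gene fall while others rise in both genotypes, the lowest Dsg2 change being -4.23 in KO and -3.76 in WT.

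In the large intestine, 1 of 9 members was called, Dsc3, against 0.0294% of all genes called lower (4 genes) and 0.0588% called higher (8 genes). Dsc3 had 5.84 and 6.17 in KO large intestine, against 9.18 and 8.48 in WT large intestine, a change of -2.82 ± 0.26 (SE), or 7.08-fold (adjusted p = 7.7e-06). The WT large intestine mean of 8.83 ± 0.50 (SD, n = 2) ranked next after WT proximal stomach for Dsc3 and overlapped with WT E15 bladder. The call rests on the spread pooled over all groups: with only the 4 large intestine arrays fitted the adjusted p was 0.74. The second Dsc3 probe set, below the median on all arrays, read 5.34 and 5.58 in KO and 5.38 and 5.48 in WT and did not show the difference. The mean of the squamous markers was 6.74 and 7.12 in KO large intestine, against 6.56 and 6.69 in WT. Of these 8 markers, 6 lay below the array median on each KO array and 7 on each WT array. The part of these markers in the Dsc3 change was not tested. Cdsn had 4.78 and 5.01 in KO, against 4.13 and 4.24 in WT (change 0.71, adjusted p = 0.35), all near the low end of the array.

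In the distal stomach and small intestine 0 of 9 members were called and 0% of all genes were called lower or higher, by limma. At an unadjusted p under 0.05 the member counts were also 0, and 528 of all genes passed in distal stomach and 626 in small intestine. Member changes lay between -0.15 and 0.38 in distal stomach and between -0.28 and 0.15 in small intestine, with standard errors of up to 0.30. Dsc3 had 7.70 and 7.41 in KO distal stomach, against 7.29 and 7.46 in WT distal stomach, and Pkp2 had 11.17 and 11.17 in KO, against 11.21 and 11.09 in WT.

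The size of the KO change was compared between tissues. Between proximal stomach and bladder at E18, 5 of 9 members differed (22.8% of all genes): Cdsn by -8.94, Pkp2 by 5.10, Dsc3 by -4.69, Dsg2 by 1.45 and Pkp1 by 1.35, Pkp1 having fallen by 1.88 in KO bladder. Between proximal and distal stomach, 4 of 9 differed (19.2% of all genes), namely Cdsn by -9.15, Dsc3 by -5.69, Pkp2 by 4.93 and Dsg2 by 1.47. Both Cdsn differences restate its WT proximal stomach values. These comparisons share the proximal stomach arrays with the results above.

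In WT embryos the proximal stomach differed from the distal stomach in 8 of 9 members (40.4% of all genes called), Cdsn among them only through its WT proximal stomach values. Cdsn was higher in proximal stomach by 9.38, Pkp1 by 8.61, Dsc3 by 5.54, Pkp3 by 2.30, Perp by 1.45 and Dsp by 0.93, and Pkp2 (-5.28) and Dsg2 (-1.69) were lower. In KO embryos 4 of 9 were called (32.7% of all genes called): Pkp1 was higher in KO proximal than in KO distal stomach by 7.70, Pkp3 by 1.5, Perp by 1.29 and Dsp by 0.80. Cdsn (0.23), Dsc3 (-0.16), Pkp2 (-0.35) and Dsg2 (-0.23) were not called there. Dsc2 was not called in either genotype, at 0.22 in KO and 0.42 in WT.

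WT proximal stomach differed from WT E18 bladder in all 9 measured members (46.6% of all genes called), Cdsn among them only through its WT proximal stomach values, with Cdsn higher by 9.06, Dsc3 by 5.67 and Pkp1 by 4.56 and with Pkp2 lower, at -4.82. WT E18 bladder differed from WT large intestine in 5 of 9 (40.7% of all genes called): Pkp1, Perp and Dsg2 were higher in bladder by 3, 1.53 and 0.44, and Dsc3 (-1.59) and Dsc2 (-1.24) were lower. Another Dsg2 probe set gave -0.053 there.

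Across the 14 group means the members did not form a single pattern. As a description, without a test, Pkp2 and Dsg2 correlated at 0.86, Pkp1 and Perp at 0.85 and Dsp and Perp at 0.81, while Dsc3 and Pkp2 correlated at -0.89. The 14 means share tissues and arrays. Over the 7 KO groups alone, Dsc3 and Pkp2 correlated at -0.51 and Pkp2 and Dsg2 at 0.46, whereas Pkp1 and Perp correlated at 0.87. Among all other genes, those most like Cdsn were Sprr2i, Lce1b and Il1f6 (r = 0.996, 0.995 and 0.995), the first 2 encoding proteins of the cornified envelope. Cdsn was above the array median in WT proximal stomach alone, so its r values rest on that group. Any gene high only there would correlate with it strongly. Those most like Pkp2 were Krt20, Tspan13 and Cystm1 (0.95, 0.93 and 0.92), those most like Pkp1 were Alox12, Krt4 and Dusp22 (0.96, 0.96 and 0.96), and those most like Perp were Tent5b, Krt15 and Padi1 (0.94, 0.93 and 0.93). Krt8 was among the 3 genes most like Dsg2, at 0.86.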

How the data were processed

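The authors deposited log2 expression values for 45101 probe sets on 28 arrays, made with Affymetrix Expression Console and Partek, per the submitters' processing notes. The sources used here do not state the versions, the summarisation method or the normalization. RNA was Trizol-extracted total RNA labelled with a 3′ kit, per the labels' protocols, so signal can depend on RNA length.

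After 64 control probe sets were left out, 34945 had 1 gene symbol in the platform annotation, 932 had several and 9160 none. Of the symbols, 34741 equalled the RefSeq symbol of the same gene ID and 204 IDs were missing there. A probe set was kept if it exceeded its array's median on at least 2 arrays (28866 kept), and each gene took its highest-mean probe set (13613 genes). Group means were fitted to all 28 arrays with limma 3.58.1 (R 4.3.3, trended empirical Bayes, 14 residual degrees of freedom), and p-values were adjusted by Benjamini-Hochberg over all genes, at 0.05. A change is a difference of log2 values, KO minus WT unless stated. An exact permutation test of 2 against 2 cannot go below 0.333, so groups that do not overlap show little by themselves. The share of all genes without overlap is not given here. The number of arrays limits the precision. The scripts were tested on simulated data.

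The text names all members and their probe sets, the Trp63 probe sets, up to 4 called genes per list and comparison by size, and the 3 genes most like each member over the group means. The lists cover other desmosome proteins, the adherens junction, corneodesmosome proteases and inhibitors, stratified and simple keratins, and marker genes of cell types. The members and lists were chosen with earlier results of these data known. Alternatives were the filter, centring, quantile normalization, the mean of probe sets, other probe sets, the groups compared alone, no variance trend, array weights, an actin 3′ to 5′ covariate, the replicate number as a block and leaving out each array. Leaving out the 4 E19 arrays and crossing the small intestine numbers were chosen after seeing the data. Whether the replicate numbers pair the samples could not be settled, and the main fit used no pairing. Deviations of arrays with the same number correlated at -0.127 to 0.275 over the 7 comparisons of KO with WT. The highest values were those of large intestine (0.275), proximal stomach (0.25) and distal stomach (0.20).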

Additional observations from a re-analysis of the deposited data

Results flagged for a closer look

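The KO change differed between tissues or stages for these genes by a test of the difference itself, with limma's adjusted p over all genes. Between proximal stomach and E18 bladder the KO change of Cdsn differed by -8.94, that of Pkp2 by 5.10 (adjusted p = 1.5e-12), that of Dsc3 by -4.69 (6.5e-09), that of Dsg2 by 1.45 (4.4e-06) and that of Pkp1 by 1.35 (0.024). Between proximal and distal stomach it differed by -9.15 for Cdsn, 4.93 for Pkp2 (3.0e-12), -5.69 for Dsc3 (2.8e-10) and 1.47 for Dsg2 (3.5e-06). No p is given for Cdsn: it was tested only through the 2 WT proximal stomach arrays, whose values both differences restate, and the other 26 arrays read 3.79 to 5.49. Between E19 and E15 bladder it differed by -1.14 for Dsp (0.0074), -1.30 for Pkp3 (0.019), -1.0 for Perp (0.022), -0.64 for Dsg2 (0.033), -1.45 for Pkp1 (0.035) and -0.83 for Pkp2 (0.036). The E15 arrays differ in the actin measure and the E19 arrays in their scale, and the part of either in these 6 differences was tested only by the actin covariate, with which 0 of 9 members were called.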

How the results depend on the processing

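Of 12 member calls between KO and WT, 121 of 130 refits under another setting kept direction and call and 9 lost the call. These refits, and the proximal stomach count that follows, include Cdsn in proximal stomach. It was tested only through its WT arrays there, so its part in them says nothing on whether its call is stable. The number of members called in proximal stomach was 5 without any 1 of its arrays. It moved at E15 from 3 to 0 with the actin covariate. At E18 it moved from 1 to 2 with the stricter filter, with median centring and with only the groups compared, Pkp1 losing its call in the last. The E18 number rose to 3 with array weights and to 4 with the replicate block. The number moved at E19 from 2 to 1 with the mean of probe sets. In large intestine it moved from 1 to 0 with only the groups compared and to 2 with no variance trend. For the bladder mean it moved from 5 to 3 with the mean of probe sets and 2 with the actin covariate, and to 0 with that covariate for the E19 to E15 difference (from 6) and for KO E18 minus E15 (from 5). Leaving out 1 array gave 1 to 3 members at E15, 1 to 2 at E18 and 1 to 2 at E19, 2 to 5 for the bladder mean, 1 to 5 for the E19 to E15 difference and 2 to 5 for KO E18 minus E15. The replicate block changed no other number of members by more than 1.5 times, and the crossed small intestine numbers gave 0 calls. Another probe set, or the mean of a gene's probe sets, turned the direction of 26 member values, most of them in the step to E19, and the cause was not tested. For that step in KO the values were -0.58 (mean), -4.23 and -1.10 for Dsg2, -0.80 (mean), -5.07 and -1.07 for Pkp2 and -0.11 (mean), -1.07 and -0.27 for Dsp. In WT they were -0.43 (mean), -3.76 and -0.95 for Dsg2, -0.63 (mean), -4.56 and -0.91 for Pkp2, -0.13 (mean), -1.26 and -0.086 for Dsp, and 0.38 for Dsc2. Other probe sets gave 0.0074 for Dsc2, -0.67 for Dsg2 and 0.84 for Dsp in KO E18 minus E15 bladder, -0.053 for Dsg2 and -0.70 for Pkp2 in WT bladder minus large intestine, 0.10 for Dsp in the E19 to E15 difference, and -1.59 for Dsc2 in the proximal stomach to bladder difference. Over all genes, the number called ranged under other settings from 3 to 1013 at E15 (959 as reported), 291 to 716 at E18 (441), 2059 to 4780 in proximal stomach (4448), 0 to 19 in large intestine (12), 1185 to 3265 for the bladder mean (2857) and 30 to 1288 for the E19 to E15 difference (1170). Without 1 array it ranged from 126 to 1783 at E15, 164 to 311 at E18, 1364 to 1990 at E19 (2721), 0 to 252 in distal stomach (0), 0 to 14 in small intestine (0) and 4 to 121 in large intestine. In the bladder mean Dsg2 also missed the threshold with median centring (adjusted p = 0.052) and Pkp1 with only the groups compared (0.051), and at E15 Pkp3 did with the mean of probe sets (0.083) and with only the groups compared (0.072). The number of arrays limits the precision, so differences of the size of the standard errors were not detectable.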
